A study of Mus musculus with 16 samples.

Results

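Metallothioneins and the zinc genes that work with them were followed in mouse liver after dexamethasone, in animals with and without the glucocorticoid receptor (GR) in liver. The set held 5 genes: the metallothioneins Mt1 and Mt2, the transcription factor Mtf1, the zinc importer Slc39a14 and the zinc exporter Slc30a1. They were chosen by gene name among the non-control spots of every array, and all 5 passed the filter on dim signal, of 18476 genes tested in all. They are read by 10 probes, of which 9 were kept and each of those was well above background on all 16 arrays.

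RNA from whole liver of male C57BL/6 mice aged 3 months was labelled with Cy3 and hybridised alone, 1 sample to an array. The groups, of 4 arrays each, were GR knockout with dexamethasone (treated knockout), GR knockout without treatment (untreated knockout), wild type with dexamethasone (treated wild type) and wild type without treatment (untreated wild type). Dexamethasone is a synthetic glucocorticoid. GR, the product of Nr3c1, is the nuclear receptor it binds, and the labels describe the knockout as one of the liver. Strain, sex and age were shared by all groups. The sample titles of both knockout groups also carry the letters PBS, and the treatment protocol names a vehicle where the sample sources say no treatment. The dose, the route, the duration, the Cre driver and the deleted exons were not stated in the labels. Nothing in the labels says that replicates came from separate mice, so the p-values measure the spread between these samples, which may in part be technical.

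Metallothioneins are small cysteine-rich proteins that bind zinc and copper, and the liver is one of their main sites of synthesis. When free zinc rises, the zinc-finger factor MTF-1 (gene Mtf1) binds metal response elements in metallothionein promoters and in that of Slc30a1. Slc30a1 encodes ZnT1, which moves zinc out of the cell across the plasma membrane, and Slc39a14 encodes ZIP14, which moves zinc, iron and manganese into hepatocytes. Glucocorticoids are long known as inducers of metallothionein in liver, and ZIP14 is known as an importer of the hepatic acute-phase response.

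Mt1 and Mt2 are neighbours on mouse chromosome 8, in the order Mt4, Mt3, Mt2, Mt1 in the RefSeq gene order. On the mm7 build of the deposited annotation the brightest Mt1 probe lies at chr8:92769155-92769214, the Mt2 probe at chr8:92762515-92762574, and a second Mt1 probe at chr8:92768988-92769047, all on the plus strand. The Slc39a14 probes lie at chr14:64948082-64948141 and chr14:64950977-64951036 on the minus strand. The Mtf1 probes kept lie at chr4:124249624-124249683 and chr4:124293768-124293827, and those of Slc30a1 at chr1:191462639-191462698 and chr1:191465806-191465865, all on the plus strand. Exons and untranslated regions at these places were not annotated here. The brightest Mt1 probe is shown because it was printed as 10 spots on every array, which gave the measurement error of the gene that the results turn on:
Mt1 probe: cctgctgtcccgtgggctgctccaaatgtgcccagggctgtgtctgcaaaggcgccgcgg

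RefSeq promoter windows on the GRCm38.p6 build, from 250 bases before to 50 bases after the listed start site, were matched for 4 of the 5 members. The windows of Mt1, Mt2 and Slc30a1 are shown since all of these are textbook targets of MTF-1 and the first pair moved together on the arrays. Capitals mark the core of the metal response element, TGCACNC or TGCGCNC on either strand:
Mt1, chr8:94178839-94179138, plus strand: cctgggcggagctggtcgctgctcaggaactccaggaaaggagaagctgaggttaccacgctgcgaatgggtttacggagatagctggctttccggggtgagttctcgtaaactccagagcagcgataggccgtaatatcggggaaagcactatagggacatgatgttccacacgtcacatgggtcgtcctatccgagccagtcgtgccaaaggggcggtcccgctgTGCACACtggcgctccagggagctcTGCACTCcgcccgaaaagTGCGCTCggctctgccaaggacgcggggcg
Mt2, chr8:94172368-94172667, plus strand: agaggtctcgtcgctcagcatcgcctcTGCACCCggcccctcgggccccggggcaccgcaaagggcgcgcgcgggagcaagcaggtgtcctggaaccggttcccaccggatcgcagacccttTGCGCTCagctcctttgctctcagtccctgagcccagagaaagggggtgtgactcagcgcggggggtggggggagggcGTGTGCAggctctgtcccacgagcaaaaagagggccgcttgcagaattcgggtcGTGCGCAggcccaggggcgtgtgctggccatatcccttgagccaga
Slc30a1, chr1:191906531-191906830, plus strand: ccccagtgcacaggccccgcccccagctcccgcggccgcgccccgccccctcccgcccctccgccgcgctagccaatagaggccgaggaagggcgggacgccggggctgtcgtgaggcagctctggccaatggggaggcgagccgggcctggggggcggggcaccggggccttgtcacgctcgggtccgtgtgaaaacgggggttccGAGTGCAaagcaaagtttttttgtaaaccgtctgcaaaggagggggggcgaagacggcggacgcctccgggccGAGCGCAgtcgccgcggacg
The core was found 3 times for Mt1, with first bases at -23, 3 and 21 counted from the start site, and 4 times for Mt2, at -223, -128, -50 and 5. Slc30a1 had 2 matches, at -43 and 31, and the Mtf1 window had 0. Of all 32851 windows of this length, 25.7% held at least 1 core, 7.11% at least 2, 1.97% at least 3 and 0.517% at least 4. The full glucocorticoid response element searched, AGAACA, any 3 bases, TGTTCT on either strand, matched in 0 of the 4 windows and in 0.00913% of all windows. A single arm of it, AGAACA or TGTTCT, which every full element also contains, matched 1 time, in the Mtf1 window, and in 19% of all windows. Sequence outside these windows was not searched, so the counts describe these letters only.

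Levels below are log2 signals relative to the 75th percentile of the array. It lay at 309.0 for untreated knockout array 1, at 400.0 for array 4 of untreated wild type and at 523.9 to 691.1 for the other 14 arrays. Each slide, and each scan, carried only arrays of a single group, so the effects of slide, scan and group cannot be told apart. Of the 4 Nr3c1 probes, 3 were called lower in untreated knockout than in untreated wild type, by 2.10, 1.99 and 2.25 on the log2 scale, and for the other the log2 difference was -1.62 without a call. The 6 hepatocyte markers with a probe were above background on all 16 arrays. Precision is limited by the 4 arrays of a group. In whole liver, fewer cells of a type and less RNA per cell cannot be told apart.

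Dexamethasone raised both metallothioneins in wild type, Mt1 by 24.1-fold and Mt2 by 29.96-fold, and their levels were also higher in treated than in untreated knockout, by 6.95-fold and 7.07-fold, where the test across all genes did not call them. In treated livers both were lower in knockout than in wild type. One untreated wild-type array carried both genes close to the treated level, and the size of the wild-type response, as well as the call in the knockout, depended on whether it was counted.

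Mt1 stood at 5.98, 4.45, 4.07 and 5.79 on the 4 treated knockout arrays and at 2.57, 1.40, 1.45 and 3.67 on the 4 untreated knockout arrays. In treated wild type it stood at 8.52, 8.24, 8.57 and 9.05, against 1.94, 3.28, 2.71 and 8.10 in untreated wild type. Treated arrays stood above all untreated arrays in both genotypes, as was the case for 4.18% of all genes in knockout and 9.35% in wild type, and the 8.10 of untreated wild-type array 4 lay just under the lowest treated wild-type array. Repeat spots of this probe within an array differed with a coefficient of variation of 1.38% to 3.35%, so the distance of that array from its group was far beyond the error of a spot.

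**Figure D1:**
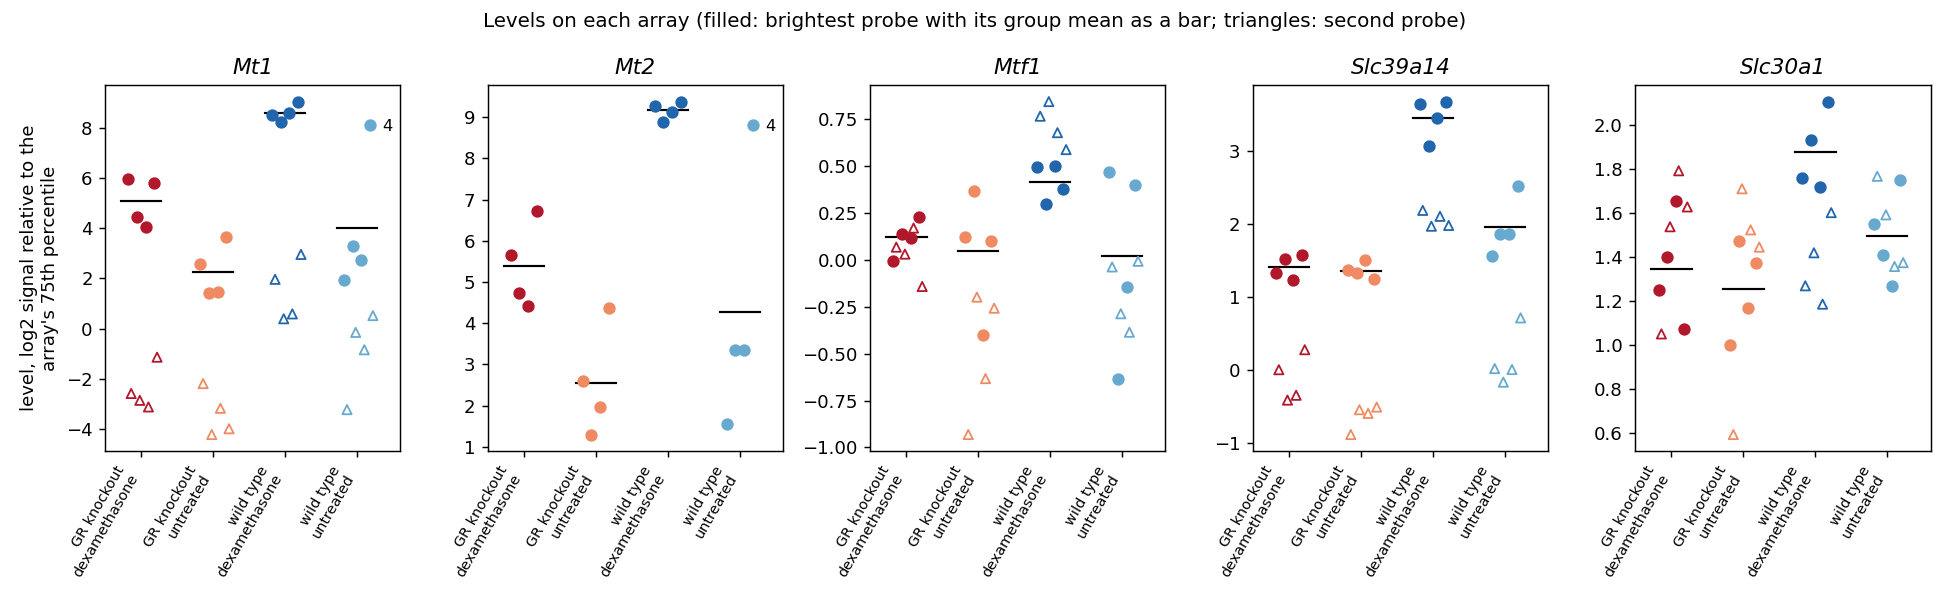
Levels (y axis, log2 signal relative to the 75th percentile of the array) of the 5 members on each array, in the order treated knockout, untreated knockout, treated wild type and untreated wild type. Filled points are the brightest probe, bars its group mean and triangles the second probe kept. The array marked 4 is untreated wild-type array 4, at 8.10 for Mt1 and 8.80 for Mt2, where the other 3 arrays of its group lie between 1.94 and 3.28 and between 1.54 and 3.36.

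Mt2 followed the same order. It stood at 5.66, 4.72, 4.42 and 6.71 in treated knockout and at 2.60, 1.30, 1.96 and 4.38 in untreated knockout. In wild type the treated arrays were at 9.27, 8.89, 9.12 and 9.38 and the untreated ones at 1.54, 3.34, 3.36 and 8.80. Treated and untreated arrays again did not overlap in either genotype, although the highest untreated knockout array lay just under the lowest treated one, and array 4 of untreated wild type lay just under the lowest treated wild-type array.

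Ordered by group mean, Mt1 was highest in treated wild type (8.60 ± 0.33, SD, n = 4), then in treated knockout (5.07 ± 0.95), untreated wild type (4.01 ± 2.78) and untreated knockout (2.27 ± 1.07). Mt2 had the same order, with 9.17 ± 0.21 in treated wild type, 5.38 ± 1.04 in treated knockout, 4.26 ± 3.15 in untreated wild type and 2.56 ± 1.33 in untreated knockout (SD, n = 4 each). For both genes the arrays of treated knockout overlapped those of untreated wild type through untreated wild-type array 4 alone. Treated knockout began at 4.07 for Mt1 and 4.42 for Mt2, above the other 3 untreated wild-type arrays, which ended at 3.28 and 3.36. The arrays of untreated wild type and untreated knockout overlapped with that array and without it.

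In wild type, limma called 3 of the 5 members higher with dexamethasone, Mt1, Mt2 and Slc39a14, where 5.11% of all genes were called higher. The log2 change of Mt1 was 4.59 (standard error 1.01, adjusted p = 0.0095) and that of Mt2 4.90 (1.15, adjusted p = 0.0128). In the knockout 0 of 5 members were called, beside 3.63% of all genes called in either direction, and 2 of the 5, Mt1 and Mt2, had an unadjusted limma p under 0.05. There the log2 change of Mt1 was 2.80 (adjusted p = 0.154) and that of Mt2 2.82 (adjusted p = 0.217). The spread that enters these tests is shared by all 4 groups, and untreated wild type carried most of it. With the 2 knockout groups fitted alone, the standard error of Mt1 was 0.61, against 1.01, and its adjusted p was 0.0884.

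**Figure D2:**
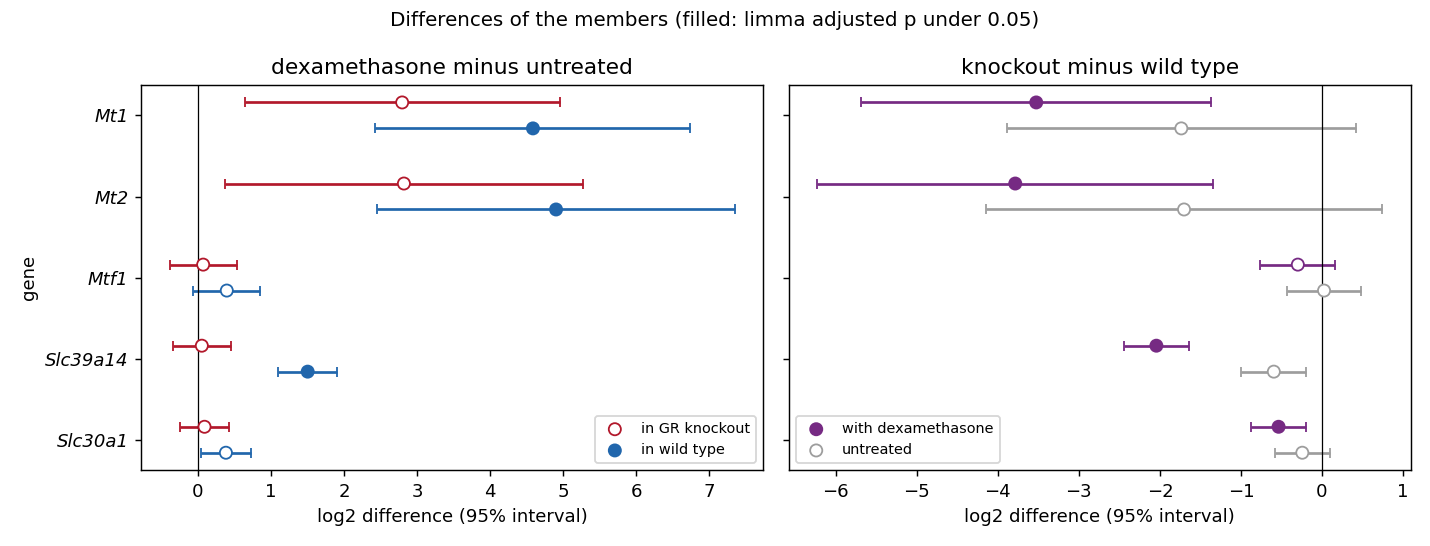
Log2 differences (x axis) of the members with 95% intervals from limma over 16 arrays. The left panel gives treated minus untreated in knockout (red) and wild type (blue), the right panel knockout minus wild type with dexamethasone (purple) and without treatment (grey), and filled points have an adjusted p under 0.05. The interval of Mt1 is 0.64 to 4.95 in the knockout and 2.43 to 6.75 in wild type.

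Between treated livers, 4 of the 5 members were called lower in knockout than in wild type, beside 8.21% of all genes called lower. Mt1 was 11.5-fold lower (log2 -3.53, adjusted p = 0.0221) and Mt2 13.8-fold lower (log2 -3.79, adjusted p = 0.0285), with no overlap between the arrays of the genotypes, as for 11.8% of all genes in that direction. Over the 16 fits that each left out 1 array, Mt1 was called in 13 and Mt2 in 9, with adjusted p of up to 0.0649 and 0.0778. Mt1 lost its call without treated knockout array 2 or 3 or treated wild-type array 4, at log2 differences of -3.32, -3.19 and -3.38. Mt2 lost it without treated knockout array 1, 2 or 3 or any 1 of the 4 treated wild-type arrays, at -3.88 to -3.46. Without untreated wild-type array 4 both calls held, and the adjusted p was 0.000542 for Mt1 and 0.00115 for Mt2. With only the treated groups fitted, the standard error was 0.43 for Mt1 and 0.45 for Mt2, against 1.01 and 1.15. The adjusted p from limma was then 0.0012 and 0.00105.

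Without treatment, 0 of the 5 members were called between knockout and wild type, beside 2.82% of all genes, and 1 of 5, Slc39a14, had an unadjusted p under 0.05. The log2 difference of Mt1 was -1.74 (95% interval -3.89 to 0.42) and that of Mt2 -1.70 (-4.15 to 0.75). On these probes both came largely from array 4 of untreated wild type, since without it the differences were -0.37 and -0.19. On the second Mt1 probe the log2 difference was -2.47 (95% interval -4.11 to -0.83, adjusted p = 0.103), with overlapping arrays. A fit without array 4 was not made for that probe.

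Leaving out untreated wild-type array 4 moved the metallothionein results of every comparison with untreated livers, in size or in adjusted p. The log2 change with dexamethasone in wild type became 5.95 for Mt1 and 6.42 for Mt2, against 4.59 and 4.90 with all arrays. In the knockout the changes themselves, 2.80 and 2.82, could not move, but the smaller shared spread brought adjusted p to 0.0117 and 0.0278, so that both were called. The difference between the responses, knockout minus wild type, was -1.79 for Mt1 (adjusted p = 0.636) and -2.08 for Mt2 (adjusted p = 0.623) with all arrays, and -3.15 (adjusted p = 0.033) and -3.60 (adjusted p = 0.0419) without that array.

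**Figure D3:**
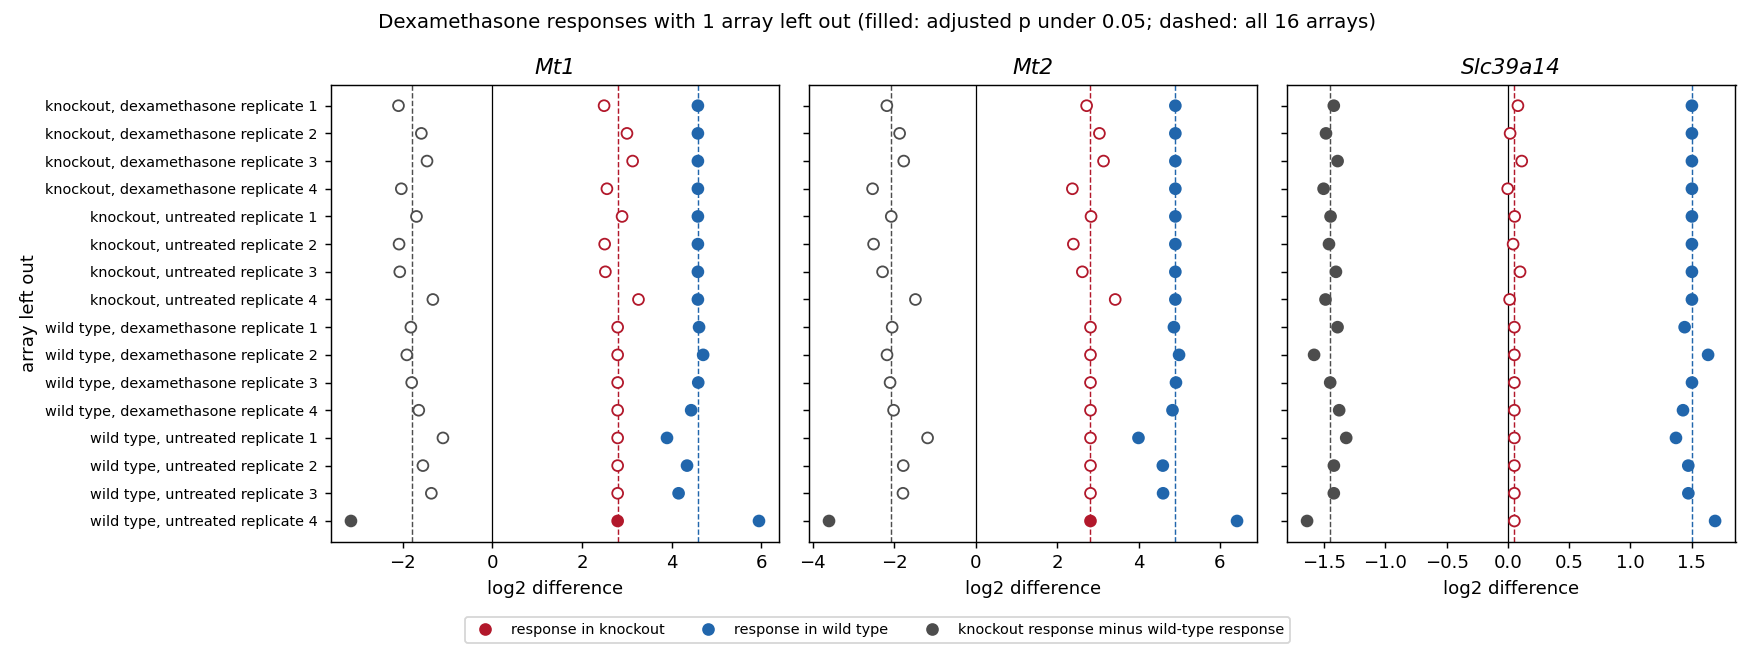
Log2 differences (x axis) of Mt1, Mt2 and Slc39a14 in fits that each left out the array named on the y axis, for the response to dexamethasone in knockout (red) and wild type (blue) and for their difference (grey). Filled points have an adjusted p under 0.05, and dashed lines mark the fit with all arrays. In the bottom row, without untreated wild-type array 4, the difference of Mt1 reaches -3.15 and that of Mt2 -3.60, and both are called there and in no other row, while the difference of Slc39a14 is called in all 16.

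Array 4 of untreated wild type lay 91.6% of the way from the mean of the other 3 untreated arrays to the treated mean for Mt1, and 94.4% of the way for Mt2. Slc39a14 lay 44.7% of the way and Slc30a1 72.8%. For 4 of the 5 members it fell outside the other 3 arrays on the treated side, Mtf1 being the exception. Over 18452 genes the same was true of 41.64% for array 4, and of 21.28%, 15.64% and 40.95% for arrays 1, 2 and 3.

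Other lists were mixed on that array. It lay on the treated side of its group for 6 of 10 genes induced by glucocorticoids, among them Fkbp5, Tat and Cdkn1a. Dusp1, the 1 of the 10 within the treated range, was not among these 6. Per1 (1.53) and Sgk1 (1.19) lay below the other 3 untreated arrays, which began at 1.60 and 1.68. Of 16 acute-phase genes, 12 lay on the treated side. The 2 within the treated range, Socs3 and Il1rn, were not among these 12. Of the 12, Orm2, Hp, Hpx, Fgb, Fgg and Hamp lay past the treated range and the others short of it. Haptoglobin (Hp), whose log2 change with dexamethasone in wild type was 0.06 (adjusted p = 0.896), stood past that range, at 9.89 to 10.09 in treated wild type and at 10.54 on this untreated array. Lcn2, an acute-phase protein that binds bacterial siderophores, stood at 3.15 to 4.23 in treated wild type and at 0.63 on this array. The other 3 untreated wild-type arrays read -4.94 to -2.58 for Lcn2, so this array lay 60.6% of the way from their mean to the treated mean. Of the other zinc genes 8 of 20 lay on the treated side, close to the share over all genes. The part of the lower signal of that array in these values was not tested.

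Mt1 and Mt2 moved together from array to array. Over the 16 arrays their levels correlated with Pearson r = 0.99 and Spearman rho = 0.99, and their deviations from the group means with r = 0.98, or 0.91 without untreated wild-type array 4. These are descriptions over arrays that fall into 4 groups, and both genes share each array's labelling and scale.

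**Figure D4:**
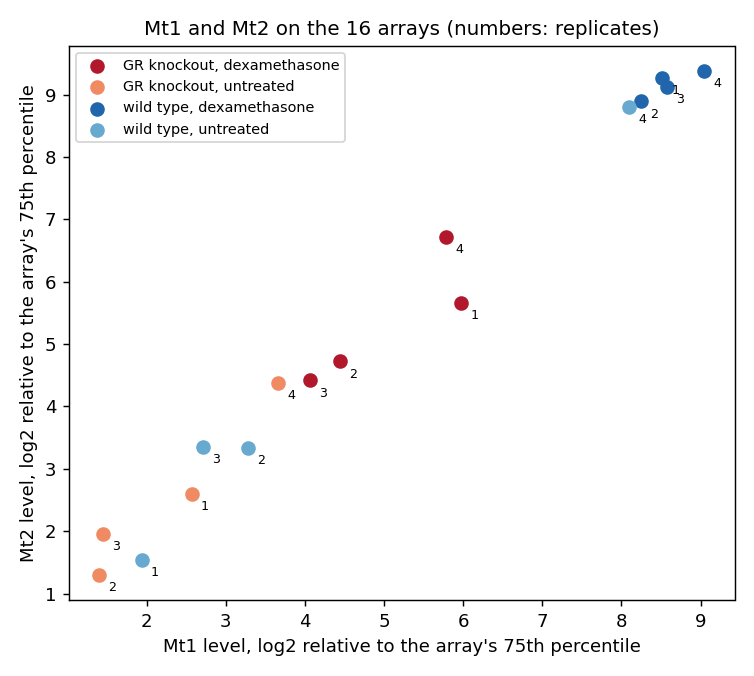
Level of Mt2 (y axis) against that of Mt1 (x axis), both as log2 signal relative to the 75th percentile of the array, on the 16 arrays, coloured by group and numbered by replicate. Treated wild-type arrays and untreated wild-type array 4 lie together at the top right, and treated knockout arrays lie between them and most untreated arrays.

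The second Mt1 probe, 167 bases before the brightest one and listed under another transcript, separated the groups less fully. It stood at -2.59, -2.86, -3.12 and -1.14 in treated knockout and at -2.19, -4.22, -3.18 and -3.99 in untreated knockout. In wild type it stood at 1.96, 0.39, 0.58 and 2.96 with dexamethasone and at -3.23, -0.15, -0.84 and 0.52 without. Treated and untreated arrays overlapped in both genotypes on this probe. In a fit over all probes kept, its log2 change with dexamethasone was 0.97 in knockout (adjusted p = 0.605) and 2.40 in wild type (adjusted p = 0.0579), and in treated livers it was 14.9-fold lower in knockout than in wild type (adjusted p = 0.00292).

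Slc39a14, the importer ZIP14, rose with dexamethasone in wild type by 2.84-fold, while the brightest probe gave a 1.04-fold difference without a call in the knockout. It is the member whose response differed between genotypes by the test of the difference itself. The brightest probe read 1.32, 1.51, 1.23 and 1.57 in treated knockout and 1.36, 1.32, 1.50 and 1.24 in untreated knockout, and the arrays of these groups are fully mixed. In wild type it read 3.63, 3.06, 3.45 and 3.67 with dexamethasone and 1.56, 1.86, 1.86 and 2.52 without, with array 4 again the highest untreated one but well under the treated range.

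The log2 change of Slc39a14 was 0.05 in the knockout, with a 95% interval from -0.35 to 0.45, and 1.50 in wild type (standard error 0.19, adjusted p = 0.00035). The response in knockout minus that in wild type was -1.45 (standard error 0.27, adjusted p = 0.00806), beside 2.69% of all genes called lower in that test, and Slc39a14 was the 1 member of 5 so called. In treated livers it was 4.12-fold lower in knockout than in wild type (adjusted p = 2.65e-05). All 3 calls held in each of the 16 fits that left out 1 array. Untreated livers did not overlap either, with all knockout arrays below all wild-type arrays, as for 3.65% of all genes, at a log2 difference of -0.59 (adjusted p = 0.1).

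The second Slc39a14 probe lies 2895 bases from the brightest one. It read 0.00, -0.42, -0.35 and 0.27 in treated knockout and -0.89, -0.55, -0.60 and -0.51 in untreated knockout, so that here all treated arrays were above all untreated ones. In wild type it read 2.18, 1.96, 2.10 and 1.97 with dexamethasone and 0.02, -0.17, 0.00 and 0.71 without. The log2 change was 0.51 in knockout (adjusted p = 0.195) and 1.92 in wild type (adjusted p = 0.000116), with a difference of -1.40 (adjusted p = 0.0123). On this probe the lower level of untreated knockout against untreated wild type was called as well (log2 -0.78, adjusted p = 0.0486), as it was when both probes were averaged (-0.68, adjusted p = 0.0481).

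Mtf1, the zinc sensor that drives metallothionein transcription, had probes that differed in their calls. The brightest read -0.01, 0.14, 0.12 and 0.23 in treated knockout and 0.12, 0.37, -0.40 and 0.10 in untreated knockout. It read 0.49, 0.30, 0.50 and 0.38 in treated wild type and 0.47, -0.64, -0.15 and 0.40 in untreated wild type. Groups overlapped in both responses, and its log2 change was 0.07 in knockout and 0.40 in wild type, without a call (adjusted p = 0.908 and 0.263). Between treated livers all knockout arrays were below all wild-type arrays, at a log2 difference of -0.30 (adjusted p = 0.356).

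The second Mtf1 probe, 44144 bases away and listed under the gene's RefSeq transcript, separated all groups with dexamethasone from their untreated counterparts. It read 0.07, 0.03, 0.17 and -0.14 in treated knockout and -0.93, -0.20, -0.63 and -0.26 in untreated knockout. In wild type it read 0.76, 0.84, 0.68 and 0.59 with dexamethasone and -0.04, -0.29, -0.39 and -0.01 without. Its log2 change of 0.90 in wild type (1.86-fold) was called (adjusted p = 0.00298), and that of 0.54 in the knockout was not (adjusted p = 0.0938). In treated livers it was lower in knockout than in wild type by a log2 difference of -0.69 (adjusted p = 0.00779). With both kept Mtf1 probes averaged, the log2 change was 0.30 in knockout (adjusted p = 0.388) and 0.65 in wild type (adjusted p = 0.0203). The averaged level in treated livers was lower in knockout by a log2 difference of -0.49 (adjusted p = 0.0452). The remaining Mtf1 probe was well above background on 0 of the 16 arrays and was left out.

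Slc30a1, the exporter ZnT1, had 2 probes that disagreed. The brightest read 1.25, 1.40, 1.65 and 1.07 in treated knockout, and 1.00, 1.47, 1.17 and 1.37 in untreated knockout. It read 1.76, 1.93, 1.72 and 2.10 in treated wild type, and 1.55, 1.41, 1.27 and 1.75 in untreated wild type. Its treated wild-type arrays lay above every array of both knockout groups and overlapped untreated wild type through array 4 alone. The log2 change was 0.09 in knockout (adjusted p = 0.831) and 0.38 in wild type (adjusted p = 0.134), and in treated livers it was 1.45-fold lower in knockout than in wild type (adjusted p = 0.0255), a call that held in 12 of the 16 fits leaving out 1 array and was lost without treated knockout array 1 or 4 or treated wild-type array 2 or 4, at log2 differences of -0.52 to -0.44. On the second probe, 3167 bases away, the wild-type change was -0.15 (adjusted p = 0.715) and the difference between treated knockout and treated wild type 0.13 (adjusted p = 0.721), so the call rests on 1 of the 2 probes. With both probes averaged that difference was -0.20 (adjusted p = 0.443), and with normexp background correction it was 0.0609 (adjusted p = 0.859), which turned its sign.

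The other genes of zinc handling showed little of this pattern. Of 24 genes listed (Mt3, Mt4 and the remaining members of the Slc30 exporter and Slc39 importer families), 20 passed the filter, and Slc30a2, Slc30a3, Slc30a8 and Slc39a12 did not. With dexamethasone 0 of the 20 were called by limma in knockout or in wild type, with 4 and 5 at an unadjusted p under 0.05, where 3.63% and 12.0% of all genes were called. Their median log2 change was 0.06 in knockout, beside 0.00 over all genes, and 0.06 in wild type, beside -0.04 over all genes. The difference between responses called 0 of 20, beside 4.62% of all genes, and untreated knockout against untreated wild type 0 of 20, each with 3 at an unadjusted p under 0.05.

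Between treated livers 3 of the 20 were called, a share below the 22.4% of all genes called in either direction in that comparison. Slc39a13, a zinc transporter of the early secretory pathway, read 1.49, 1.11, 1.34 and 1.04 in knockout and 0.88, 0.92, 0.72 and 0.29 in wild type, and was higher in knockout by 0.54 on the log2 scale (adjusted p = 0.0254). Slc39a9 was higher in knockout by 0.42 (adjusted p = 0.0334). Slc30a4, an exporter into vesicles, was lower in knockout, with a log2 difference of -0.34 (adjusted p = 0.0408). Arrays of the genotypes did not overlap for these 3 genes, nor for others of the 20 without a call, such as Slc30a6 and Slc30a9. Over all genes, the arrays of 11.8% did not overlap with knockout lower, the direction of Slc30a4 and Slc30a9. Slc39a13, Slc39a9 and Slc30a6 were higher in knockout, and the share of all genes for that direction was not listed. Each of the 3 called genes lost its call in at least 3 of the 16 fits that left out 1 array, among them those without treated knockout array 3 (Slc39a13 0.51, Slc39a9 0.43, Slc30a4 -0.34) or treated wild-type array 4 (0.40, 0.43 and -0.36 in the same order). Mt3 and Mt4, the metallothioneins known from brain and from stratified epithelia, were not called in any of the 5 comparisons although they lie in the same cluster on the chromosome.

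**Figure D5:**
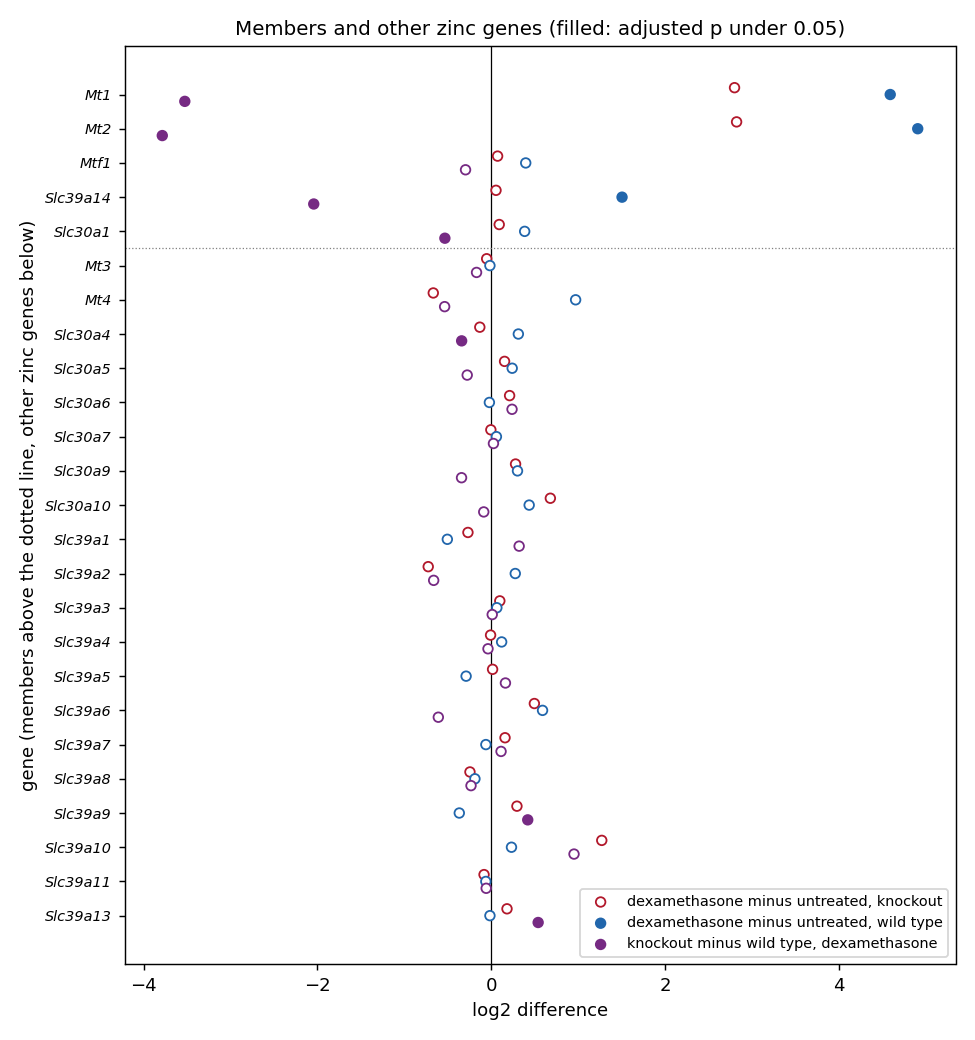
Log2 differences (x axis) of the 5 members, above the dotted line, and of the 20 other zinc genes tested, below it. Red marks treated minus untreated in knockout, blue the same in wild type and purple knockout minus wild type in treated livers, and filled points have an adjusted p under 0.05. Mt1, Mt2 and Slc39a14 stand far from 0 in blue and purple, and 3 of the other zinc genes, Slc30a4, Slc39a9 and Slc39a13, are called in purple.

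Genes with the level pattern most like that of Mt1, by Pearson correlation over the 16 arrays among 15125 genes, were Ccdc174 (r = 0.96), Fam107a (0.94), Cdkn1a (0.94), Lysmd2 (0.93) and Mfap1a (0.93). For Mt2 they were Ccdc174 (0.95), Cdkn1a (0.95), Fam107a (0.94), Plin5 (0.93) and Mfap1a (0.92). Of each 5, 4 for Mt1 and 3 for Mt2 stayed in the first 5 without untreated wild-type array 4. With each group's mean taken out, 1 for Mt1 (Ccdc174) and 2 for Mt2 (Cdkn1a and Plin5) were among the first 5. The arrays share their groups, so these values describe likeness only.

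Cdkn1a, the cell-cycle inhibitor p21, read -1.02, -1.94, -1.96 and 0.64 in treated knockout and -3.05, -3.49, -2.68 and -2.25 in untreated knockout. In wild type it read 4.24, 3.03, 3.95 and 4.15 with dexamethasone and -3.20, -3.74, -1.66 and 0.88 without, so that array 4 was again the highest untreated one. Plin5, a lipid-droplet protein, shared the feature, at 6.50 on that array against 4.67 to 4.86 on the others of its group. Ccdc174 followed Mt1 over a narrow range, from 0.18 to 0.73 on the log2 scale over all arrays, and its change with dexamethasone was not called in either genotype. Fam107a was well above background on all treated arrays of both genotypes, on 0 of 4 untreated knockout arrays and on 1 of 4 untreated wild-type arrays.

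Known glucocorticoid-induced genes gave the frame for these responses. In the knockout, 2 of 10 tested were called higher with dexamethasone, Ddit4 (log2 2.49, adjusted p = 0.0124) and Fkbp5 (2.42, adjusted p = 0.0425), beside 1.19% of all genes called higher. In wild type 6 of 10 were called higher, among them Cdkn1a (5.77), Gadd45b (5.68) and Ddit4 (3.38), beside 5.11% of all genes, and in treated livers 8 of 10 were called lower in knockout than in wild type, beside 8.21% of all genes. Acute-phase genes were called higher with dexamethasone in 0 of 16 cases in knockout, where 2 had an unadjusted p under 0.05, and in 6 of 16 in wild type, beside the same 5.11%, with Lcn2 at 6.44 and Saa3 at 3.51.

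Blood-cell markers moved with dexamethasone in both genotypes. Of 4 B-cell markers, 2 (Cd79b and Ms4a1) were called lower with dexamethasone in knockout and the same 2 in wild type. The mean log2 level of the 4 ranged from -4.07 to -3.25 in treated knockout and from -2.86 to -1.57 in untreated knockout, and from -4.60 to -3.74 in treated wild type and from -3.20 to -2.92 in untreated wild type. Hepatocyte markers ranged in mean log2 level from 7.31 to 7.49 in treated knockout, 7.13 to 7.54 in untreated knockout, 7.78 to 7.96 in treated wild type and 7.61 to 7.97 in untreated wild type. Of the 6 hepatocyte markers tested, 2, Apoa1 and Cps1, were called lower in untreated knockout than in untreated wild type, where 139 of all 18476 genes were. In treated livers 3 of the 6, among them the same 2, were called lower in knockout, beside 8.21% of all genes. The part of these cell markers in the metallothionein and zinc-transport results was not tested.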

How the data were processed

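The scanner files deposited by the authors hold, for every spot, a processed signal as an intensity with the background already subtracted. Per the submitters' processing notes the extraction software was Agilent Feature Extraction 9.5. Mean and local background signals are intensity values as well, per the file headers. The deposited files also carry flags, of the type other, that mark spots clearly brighter than background, saturated spots and outliers, per the file headers. The series table, likewise an intensity, equals the processed signal (largest difference 0). Probe positions follow the deposited annotation (mm7).

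Of 45018 spots per array, 1639 controls were dropped, 2121 outlying spots over all arrays (0.306%) became missing values, and repeat spots were averaged. Each array's log2 signal was centred on its 75th percentile. A probe had to be well above background on 3 arrays or more in some group (26794 probes), and each gene was represented by its brightest probe (18476 genes, of which 15149 have a symbol). Group means were fitted with limma 3.58.1 (R 4.3.3) to all 16 arrays with 12 residual degrees of freedom. Tests were two-sided, and calls were made at a Benjamini-Hochberg adjusted p under 0.05 across all genes. Values of single probes come from the same model over all probes kept. No saturated or outlying spot touched a member, and on 7 arrays the Mt1 and Mt2 signals came from the scanner's low-gain scan. Signals of both genes were highest on the treated wild-type arrays and untreated wild-type array 4, then on treated knockout arrays 1 and 4. Whether these were the 7 arrays was not listed, and the part of the scan gain in the results was not tested.

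Replicate numbers also name the array's place on its slide. The labels do not say that these numbers pair the samples, so they were not used as pairs. Residuals of arrays with the same number correlated between -0.186 and 0.347, and 10 of 24 pairs exceeded 0.1. Mt2 was highest on replicate 4 of every group. It read 6.71 in treated knockout, 4.38 in untreated knockout, 9.38 in treated and 8.80 in untreated wild type there. Mt1 was highest there in every group but treated knockout, where it read 5.79 against 5.98 on array 1. With a block for that number, the standard error of the wild-type change was 0.785 for Mt1 and 0.863 for Mt2, against 1.01 and 1.15. The part of the place on the slide was not tested. The members, the gene lists and the naming rule (members, called genes of the zinc and other lists, the 5 genes most like Mt1 and Mt2) were chosen with earlier results of these data known. The code was tested on simulated data. The settings varied were background correction (normexp, offset 50), normalization by quantiles or by a percentile of bright probes, the filter on dim probes (none or stricter), keeping outlying spots, averaging a gene's probes, array weights, a replicate block, the groups in the fit, the series table and leaving out each array. Leaving out untreated wild-type array 4 together with untreated knockout array 1 was added after seeing the data. Figures were drawn with matplotlib 3.10.9.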

Additional observations from a re-analysis of the deposited data

Results flagged for a closer look

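The response of Slc39a14 to dexamethasone differed between genotypes by the test of the difference itself, on both of its probes. The response in knockout minus that in wild type was -1.45 on the log2 scale on the brightest probe (A_51_P282983) and -1.40 on the second (A_51_P324110). Of 48 groups of 4 arrays tested for an array far from the others, 0 passed Dixon's 95% critical value. In untreated wild type the gap between array 4 and the nearest array took up 0.782 of the range of the group for Mt1 and 0.75 for Mt2, below that value.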

How the results depend on the processing

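The wild-type rise of Mt1, Mt2 and Slc39a14 and the lower level of all 3 in treated knockout against treated wild type kept their direction under each of the alternatives run, and the wild-type calls of all 3 held under each. With array weights, and with untreated wild-type array 4 and untreated knockout array 1 left out together (an alternative chosen after seeing the data), 2 members, Mt1 and Mt2, were called with dexamethasone in the knockout, against 0. Leaving out both arrays also gave 3 members called for the difference between responses, against 1, and averaging a gene's probes gave 1 called between untreated knockout and untreated wild type, against 0. With dexamethasone in wild type, 3 members called became 4 when probes were averaged, through Mtf1. They also became 4 with array weights and without both arrays, through Slc30a1 (adjusted p = 0.0459 and 0.0473).

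The count of other zinc genes called between treated livers, 3, became 0 with normexp correction, 1 with no filter on dim probes, 8 with array weights and 5 without both arrays. For the difference between responses, 0 became 1 with quantile normalization, 1 with the percentile over bright probes, 3 with array weights and 1 without both arrays. With dexamethasone in wild type, 0 became 5 with array weights, 1 with only the groups compared and 2 without both arrays. In the knockout 0 became 2 with array weights, and it was 1 with array weights between untreated livers. The replicate block gave 1 of these genes called with dexamethasone in the knockout, against 0, and no other change in the counts of members or zinc genes beyond 1.5 times. With that block Slc30a4 lost its call between treated livers (adjusted p = 0.054) and Mt1 in the knockout had an adjusted p of 0.0709. The counts over all genes moved in the same fits. In the knockout 671 genes became 46 with normexp correction, 129 with only the groups compared and 2125 with array weights. In wild type 2212 became 1202, 2756 and 5043 in the same order, and between treated livers 4147 became 2384, 5257 and 6724.

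With each array left out in turn, the members called with dexamethasone numbered 0 to 2 in knockout and 3 to 3 in wild type, 1 to 3 for the difference between responses, 0 to 0 between untreated livers and 1 to 4 between treated livers, where the lowest came without treated wild-type array 4 and 2 remained without treated wild-type array 2 or treated knockout array 1, 2 or 3. The other zinc genes called numbered 0 to 0 in knockout, 0 to 2 in wild type, 0 to 1 for the difference, 0 to 0 between untreated livers and 0 to 4 between treated livers.

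Signs turned only for small changes without a call, apart from Slc30a1. With normexp correction the log2 change of Slc30a1 was -0.11 in wild type, its difference between responses 0.19 and its difference between treated knockout and treated wild type 0.0609, and Slc39a14 in the knockout was -0.0175. With a gene's probes averaged the difference between responses of Slc30a1 was 0.022 and Mtf1 between untreated livers -0.15. With array weights Slc39a13 in wild type was 0.0155 and Mtf1 in the knockout -0.087. With 1 array left out, Slc39a13 in wild type lay between -0.0889 and 0.12, Mtf1 between -0.0776 and 0.18 in the knockout and between -0.19 and 0.18 between untreated livers, Slc39a14 in the knockout between -0.0008 and 0.11, and Slc30a1 in the knockout between -0.0127 and 0.18. The cause of these changes was not tested.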

Other observations

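Of 10 genes of copper handling, which shares metallothionein as a store, 2 were called between treated livers, a share near the 22.4% of all genes called there. Atp7b, the copper exporter of hepatocytes, read 1.02, 1.07, 0.89 and 1.32 in treated knockout and 0.68, -0.44, 0.81 and 0.15 in untreated knockout. In wild type it read -0.13, 0.16, -0.46 and -0.09 with dexamethasone and 0.31, 0.27, 0.09 and 0.59 without. It was 1.21 higher on the log2 scale in treated knockout than in treated wild type (adjusted p = 0.00236), and the response in knockout minus that in wild type was 1.22 (adjusted p = 0.0485). Slc31a2, a copper transporter of intracellular membranes, was higher in treated knockout than in treated wild type by 0.42 (adjusted p = 0.0211). Of the 10 copper genes tested, 0 were called with dexamethasone by limma in knockout or in wild type, with 1 and 2 at an unadjusted p under 0.05.

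Of 6 genes of the oxidative stress response, which metallothioneins are known to join, 0 were called with dexamethasone in knockout (and 0 had an unadjusted p under 0.05) and 1 was called lower in wild type, where 1267 of all 18476 genes were. That gene was Gclm, the modifier subunit of the enzyme that starts glutathione synthesis, with a log2 change of -0.63 (adjusted p = 0.0463). In treated livers, where 2630 of all genes were called higher in knockout than in wild type, 2 of the 6 were, Gclc, the catalytic subunit, by 1.16 (adjusted p = 0.0155) and Hmox1, heme oxygenase, by 0.83 (adjusted p = 0.0335), the arrays of Hmox1 overlapping between genotypes.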
